A study of Homo sapiens with 4 samples.

Results

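The 10 nuclear genes described here, whose products make, stabilise or degrade the RNA of the mitochondrion, were followed in the human neuroblastoma cell line SH-SY5Y with and without sodium nitroprusside (SNP), which is a nitric oxide donor. The genes were listed by function and found by symbol: TFAM, TFB2M, POLRMT, LRPPRC, SLIRP, MTPAP, TBRG4, GRSF1, PNPT1 and SUPV3L1, which are 10 of the 58243 genes in the deposited tables. All 10 were counted in every library and all 10 passed the expression filter, among 14759 genes tested. The control group was 2 libraries of untreated cells (agent none), lettered a and b. The SNP group was 2 libraries, also a and b. The labels call the RNA of the SNP group oxidized and do not say whether oxidized molecules were enriched before sequencing, so a change in level and a change in what was sequenced cannot be told apart. The labels give an exposure of 8 h, started 24 h after seeding, and do not say which of several doses was sequenced. They speak of cells differentiated with retinoic acid in the account of the treatment but not in that of the culture, and of replicate wells within a single experiment, so p-values measure the spread between these libraries, which may be technical.

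Mitochondrial DNA is transcribed from both strands into long precursors by a single-subunit RNA polymerase, and the precursors are cut at the transfer RNAs into mRNAs and ribosomal RNAs. The heavy-strand promoter gives 12 of the 13 mRNAs, and the light-strand promoter gives MT-ND6. How much of each mRNA is present depends on transcription, on proteins that bind and polyadenylate it, and on a helicase and a nuclease that degrade it. All of those proteins are encoded in the nucleus, and many of their genes are known targets of nuclear respiratory factor 1 (NRF1) and of ETS factors such as GABPA.

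The sequences below show what separates the mitochondrial mRNAs from each other and what the promoters of the transcription genes have in common. The first pair gives the first 60 bases of an mRNA from each mitochondrial promoter, from the GENCODE 29 transcripts, 5′ to 3′, with guanines in capitals. MT-CO1 (chromosome M, 5904 to 5963, plus strand, GRCh38) has 8 guanines and 17 cytosines in this stretch, and MT-ND6 (chromosome M, 14614 to 14673, minus strand) has 21 guanines and 3 cytosines.
MT-CO1: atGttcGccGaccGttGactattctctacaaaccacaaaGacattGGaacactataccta
MT-ND6: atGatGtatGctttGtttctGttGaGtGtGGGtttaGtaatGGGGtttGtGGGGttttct

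The next set gives 30 bases around an NRF1-type match in the promoters of the 3 transcription genes, from RefSeq on GRCh38.p14, 5′ to 3′ on the strand of the gene, with the match in capitals. The letters searched were GCGCNTGC on both strands, from 250 bases before to 50 bases after each gene start. The TFAM window lies at chr10:58385336-58385365, the TFB2M window at chr1:246566258-246566287 and the POLRMT window at chr19:633543-633572.
TFAM: tacgctctcccGCGCCTGCgccaattccgc
TFB2M: ctccgctgttcGCATGCGCaggctctagtg
POLRMT: aggcggcgcggGCGCATGCgcaggcgcggg
These letters were present in the promoters of 6 of the 10 genes (TFAM, TFB2M, POLRMT, MTPAP, GRSF1 and SUPV3L1) and in 11.7% of the 35116 promoters in the table. An ETS-type core, CGGAAG on either strand, was present for 6 of the 10 (TFB2M, POLRMT, LRPPRC, SLIRP, TBRG4 and GRSF1) and in 19.5% of all promoters, and no ETS-type match overlapped an NRF1-type match. The part of NRF1 in the changes of the genes that hold the NRF1-type letters was not tested. The promoters in the table outnumber the 14759 genes tested, and the shares among expressed genes were not taken. The NRF1-type match of GRSF1 lies by a different gene start from its ETS-type matches. A match describes the letters and does not show that a factor binds.

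The summed gene counts were between 5613144 and 8056550 per library, so 3 counts, the smallest number used here as a floor, stood for 0.372 to 0.534 counts in 1000000 of these totals. Levels below are in CPM, the count scaled to 1000000 per library with TMM-scaled library sizes. The floor covers counting error only. Of 8 adrenergic neuroblastoma markers, 7 were tested, and TH was listed at 0 in every library. In the test described below 1 rose and 5 fell (85.7%, against 26.2% of all genes tested). With DESeq2's Wald test 1 rose and 3 fell (57.1%, against 16.4%). With the guanine-over-cytosine offsets described further on 1 rose and 2 fell (42.9%, against 19.7%). Their summed level was 2139 and 2203 CPM in control and 1626 and 1773 CPM in SNP libraries. The 8 markers of mesenchymal, substrate-adherent neuroblastoma cells summed to 228 and 214 CPM in control and to 185 and 181 CPM in SNP libraries, and 4 of them were expressed highly enough to be tested. Of these 4, 0 passed, and with either kind of offsets 1 passed as lower. The part of these marker shifts in the results below was not tested.

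The groups were compared with the quasi-likelihood test of edgeR, and p-values were adjusted by Benjamini-Hochberg over the 14759 genes, with a threshold of 0.05. Of the 10 genes, 3 passed: TFAM and PNPT1 were higher and TBRG4 was lower. Of all genes tested, 26.2% passed, 13.6% higher and 12.6% lower, so 3 of 10 is near the background and is not a result about these genes as a group. The median log2 fold change of the 10 was 0.033, with a range from -0.34 to 0.52, and that of all genes tested was -0.0042. In 8 of the 10 genes the SNP and control ranges did not overlap, which held for 64.0% of all genes tested, where 26.2% passed the test. The mitochondrial mRNAs had a median of -0.55 in the same fit. With the guanine-over-cytosine offsets described further on, the medians were -0.10 for the 10 genes and 0.11 for the mitochondrial mRNAs.

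**Figure D1:**
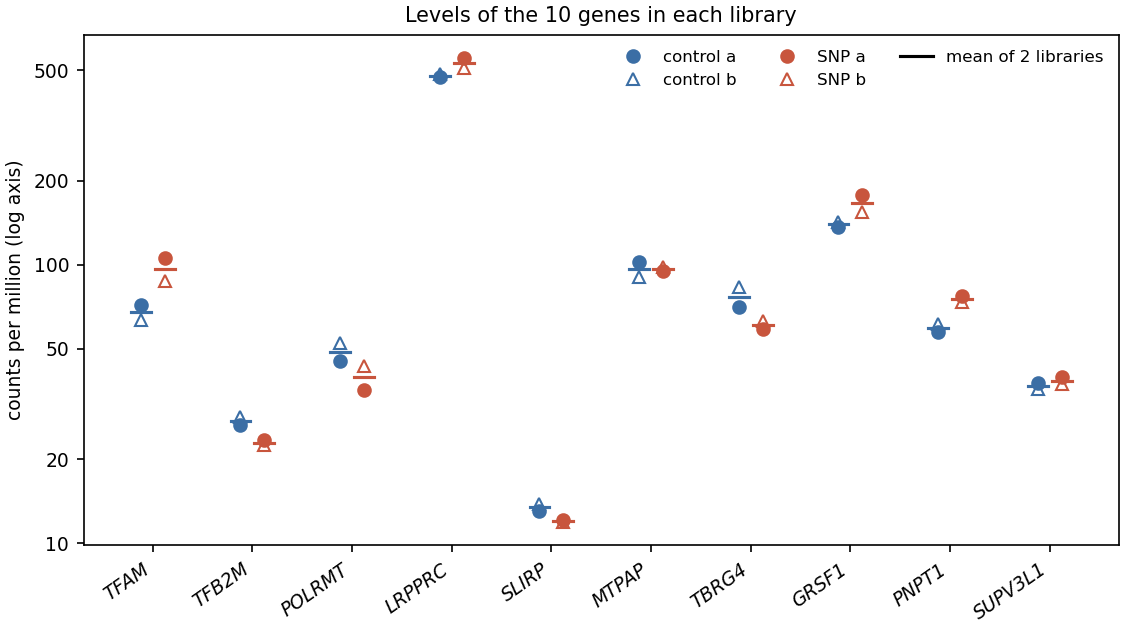
Level of each of the 10 genes in CPM (log axis) in the 4 libraries; filled circles are replicate a, open triangles replicate b, and short lines the mean of the 2 libraries of a group. LRPPRC lies highest, between 472 and 553, and SLIRP lowest, between 11.9 and 13.8. TFAM, LRPPRC, GRSF1 and PNPT1 show both SNP libraries above both controls, and TFB2M, POLRMT, SLIRP and TBRG4 show both below.

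TFAM, the DNA-packaging protein that bends the mitochondrial promoters and recruits the polymerase, had the largest rise of the 10. It (ENSG00000108064; chromosome 10, 58385022 to 58399221, plus strand) was counted 466 and 357 times in control a and b and 841 and 676 times in SNP a and b. These counts correspond to 71.9 and 63.4 CPM in control and 106 and 87.6 CPM in SNP libraries. The SNP libraries were both above the controls and differed from each other by more than the gap to the controls. TFAM had a log2 fold change of 0.52 (SE 0.123), a fold of 1.43 with a 95% interval from 1.2 to 1.71, and the adjusted p was 0.0037. Without control b it was 0.43 and did not pass, at an adjusted p of 0.0748, whereas it passed without each of the other 3 libraries. DESeq2's Wald test gave an adjusted p of 0.0090.

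TFB2M, the factor that melts the promoter for the polymerase, did not pass. It (ENSG00000162851; chromosome 1, 246540560 to 246566324, minus strand) was counted 172 and 160 times in control and 186 and 174 times in SNP libraries, or 26.5 and 28.4 against 23.4 and 22.6 CPM. Both SNP values were below both control values. TFB2M had a log2 fold change of -0.26 (SE 0.163; fold 0.838, 95% interval 0.663 to 1.06) with an adjusted p of 0.267.

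POLRMT, the mitochondrial RNA polymerase itself, did not pass either. It (ENSG00000099821; chromosome 19, 617224 to 633604, minus strand) had 45 and 52.2 CPM in control and 35.4 and 43.4 CPM in SNP libraries. The groups did not overlap, though SNP b was closer to control a than to SNP a. The log2 fold change was -0.30 (SE 0.144; fold 0.812, 95% interval 0.660 to 0.998) with an adjusted p of 0.129, and without SNP b it was -0.45 with an adjusted p of 0.0283.

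The ratios of the transcription genes combine the higher TFAM with the lower values of POLRMT and TFB2M. On the deposited TPM scale, which is per gene length, the ratio of TFAM to POLRMT was 1.46 and 1.11 in control and 2.74 and 1.84 in SNP libraries. The ratio of TFAM to TFB2M was 0.893 and 0.736 in control and 1.49 and 1.28 in SNP libraries. Neither ratio overlapped between the groups, and an exact permutation test over 2 against 2 libraries cannot give a p below 0.333. With the composition offsets described further on, the log2 fold changes were 0.17 for TFAM, -0.49 for TFB2M and -0.18 for POLRMT, so TFB2M then had the largest share in the ratio of TFAM to TFB2M.

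Of the 4 genes for mRNA stabilisation and polyadenylation, TBRG4 passed and the other 3 did not. LRPPRC binds the mitochondrial mRNAs in a complex with SLIRP and keeps a pool of them from decay. It (ENSG00000138095; chromosome 2, 43886508 to 43996005, minus strand) had 472 and 483 CPM in control and 553 and 507 CPM in SNP libraries, the highest level of the 10. Both SNP values lay above both controls, and the log2 fold change of 0.15 (SE 0.0895; fold 1.11, 95% interval 0.976 to 1.26) had an adjusted p of 0.232.

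SLIRP, the RNA-binding partner that is unstable without LRPPRC, had the fewest counts: 85 and 78 in control and 96 and 92 in SNP libraries. Its levels were 13.1 and 13.8 CPM in control and 12.1 and 11.9 CPM in SNP libraries, so the groups did not overlap. SLIRP had a log2 fold change of -0.17 (SE 0.212; fold 0.892, 95% interval 0.657 to 1.21) with an adjusted p of 0.610, the widest interval of the 10. SLIRP (ENSG00000119705; chromosome 14, 77708071 to 77761104, plus strand) shares 275 exonic bases with C14orf178, which had at most 4 counts in a library, and 118 with SNW1 on the opposite strand, for which 299 and 259 reads were counted in the controls and 710 and 507 after SNP. Whether the counting used strand is not given in the sources used here, and the part of SNW1 reads in SLIRP was not tested. The ratio of LRPPRC to SLIRP on the TPM scale was 9.71 and 9.40 in control and 12.3 and 11.5 in SNP libraries.

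MTPAP, the mitochondrial poly(A) polymerase, had the smallest change of the 10. It (ENSG00000107951; chromosome 10, 30309801 to 30374448, minus strand) had 102 and 90.5 CPM in control and 95.3 and 98.0 CPM in SNP libraries, with the SNP values inside the control range. The log2 fold change was 0.0012 (SE 0.111) with a 95% interval of the fold from 0.853 to 1.17 and an adjusted p of 0.995. It shares 1626 exonic bases with the pseudogene GOLGA2P6, which was listed at 0 counts in every library, and 1120 with AL353796.2, which was not analysed here, so reads shared with that gene were not tested.

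TBRG4, also called FASTKD4, is a FASTK-family protein that stabilises several mitochondrial mRNAs, and it was lower after SNP. It (ENSG00000136270; chromosome 7, 45100100 to 45112047, minus strand) was counted 458 and 469 times in control and 466 and 485 times in SNP libraries, which had more reads, so its level was 70.6 and 83.3 against 58.7 and 62.9 CPM. The groups did not overlap, and the spread between the controls was wider than the gap between the groups. TBRG4 had a log2 fold change of -0.34 (SE 0.123; fold 0.791, 95% interval 0.663 to 0.944) with an adjusted p of 0.0456, just inside the threshold. The call was lost without control a (0.0578), without control b (0.461), without SNP a (0.124), with DESeq2's Wald test (0.131), without a low-count filter (0.0632) and with total counts in place of TMM (0.0547), each value being an adjusted p.

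GRSF1, which marks the mitochondrial RNA granules beside the nucleoids and binds G-rich light-strand RNA, did not pass. It (ENSG00000132463; chromosome 4, 70815782 to 70839945, minus strand) had 137 and 143 CPM in control and 178 and 155 CPM in SNP libraries, with both SNP values above both controls. GRSF1 had a log2 fold change of 0.25 (SE 0.106; fold 1.19, 95% interval 1.02 to 1.39) with an adjusted p of 0.0821, and without SNP b it was 0.35 with an adjusted p of 0.0136.

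Of the degradosome pair, PNPT1 passed and SUPV3L1 did not, and whether their changes differed was not tested. PNPT1, the nuclease polynucleotide phosphorylase, was higher: it (ENSG00000138035; chromosome 2, 55634265 to 55693910, minus strand) was counted 372 and 345 times in control and 613 and 568 times in SNP libraries, or 57.4 and 61.3 against 77.2 and 73.6 CPM. The replicates of each group lay closer to each other than the groups did. PNPT1 had a log2 fold change of 0.35 (SE 0.118; fold 1.27, 95% interval 1.07 to 1.51) with an adjusted p of 0.0336. The call was lost without control a (0.293), without control b (0.129), without SNP a (0.0810), with DESeq2's Wald test (0.0987) and without a low-count filter (0.0561), each value being an adjusted p.

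SUPV3L1, the helicase that unwinds RNA for PNPT1, did not pass. It (ENSG00000156502; chromosome 10, 69180232 to 69209099, plus strand) had 37.6 and 35.9 CPM in control and 39.7 and 37.2 CPM in SNP libraries, and the groups overlapped. The log2 fold change was 0.064 (SE 0.141; fold 1.05, 95% interval 0.853 to 1.28) with an adjusted p of 0.781. The ratio of PNPT1 to SUPV3L1 on the TPM scale was 1.27 and 1.42 in control and 1.62 and 1.65 in SNP libraries. With the guanine-over-cytosine offsets described further on, PNPT1 was at 0.028 and SUPV3L1 at 0.10 on the log2 scale, so the order of their changes turned. Pseudogenes of TFAM, POLRMT and PNPT1 were listed at 0 counts in every library.

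Per gene length, the order of the 10 in control libraries was LRPPRC, GRSF1, TFB2M, TBRG4, TFAM, PNPT1, MTPAP, POLRMT, SUPV3L1 and SLIRP. The length behind the deposited TPM follows all annotated exons of a gene, such as 2631 bases for SLIRP and 8382 for MTPAP. It is not the length of the transcripts present, so this order and the size of ratios between genes also depend on the annotation. The mean levels ran from 230 ± 6.71 TPM for LRPPRC to 24.1 ± 1.26 TPM for SLIRP (SD, n = 2 each). GRSF1 at 84.5 ± 3.90 TPM was separated from its neighbours on both sides. The control ranges of TFB2M and TBRG4 overlapped, as did those of TBRG4 and TFAM, of TFAM, PNPT1 and MTPAP, and of POLRMT and SUPV3L1. In SNP libraries TFAM, at 88.0 ± 8.87 TPM, stood in the third place behind LRPPRC and GRSF1, and PNPT1, at 75.0 ± 0.0344 TPM, in the fourth. TPM levels also moved with the mitochondrial mRNAs, which made up 20.8 ± 1.75% of all TPM in the controls and 14.2 ± 1.04% after SNP (SD, n = 2 each).

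**Figure D2:**
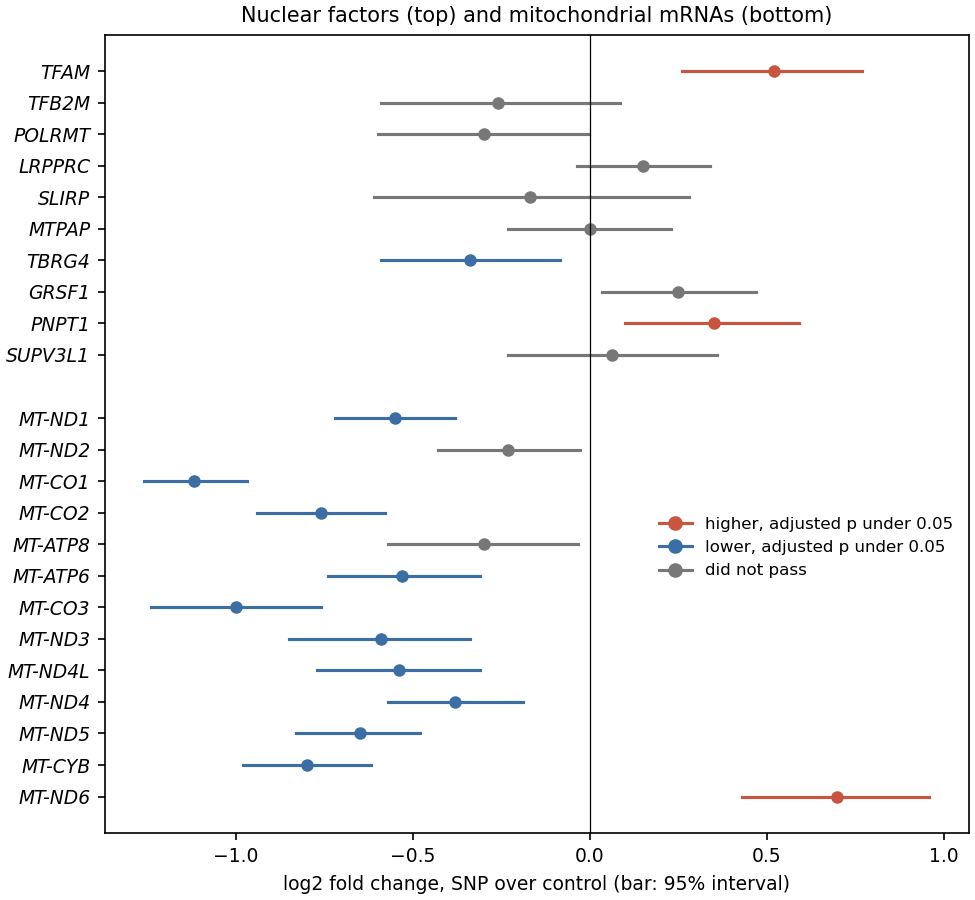
Log2 fold change of SNP over control with its 95% interval for the 10 nuclear factors (top) and the 13 mitochondrial mRNAs (bottom); colour marks the direction of those with an adjusted p under 0.05. The nuclear factors lie between -0.34 and 0.52, and the 12 heavy-strand mRNAs between -1.12 and -0.23.

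The mitochondrial mRNAs that these factors act on were set beside them in the same fit. Of the 13, 10 fell and MT-ND6 rose, where 12.6% of all genes tested passed as lower and 13.6% as higher. The 12 heavy-strand mRNAs summed to 50187 and 43990 CPM in control and to 30017 and 26735 CPM in SNP libraries, with no overlap. The largest falls were in the mRNAs for cytochrome oxidase subunits and cytochrome b, with log2 fold changes of -1.12 for MT-CO1, -0.80 for MT-CYB and -0.76 for MT-CO2, and with MT-CO3 between MT-CO1 and MT-CYB. Those of the subunits of complex I and ATP synthase on the same strand lay between -0.65 and -0.23. MT-ND2 and MT-ATP8, at -0.23 and -0.30, did not pass, at adjusted p-values of 0.0850 and 0.0901. All 12 heavy-strand mRNAs come from 1 precursor, so these differences between them arise in values that share a transcript as well as a library.

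MT-ND6 had 165 and 149 CPM in control and 300 and 209 CPM in SNP libraries, a log2 fold change of 0.70 (SE 0.129) with an adjusted p of 4.2e-04; without SNP a it was 0.41 and still passed (0.0061). The heavy-strand mRNAs were counted 304 and 296 times as often as MT-ND6 in control and 99.9 and 128 times as often in SNP libraries. The smallest p of an exact permutation test on this ratio is 0.333. Without stranded counting, reads of MT-ND6 and of the heavy-strand precursor opposite to it cannot be told apart. The 24 mitochondrial ribosomal and transfer RNA genes were listed at 0 counts in every library, so the light-strand promoter is seen here in MT-ND6 alone. Set against LRPPRC, which binds it, MT-CO1 was 227 and 204 times as abundant per length in control and 87.2 and 92.3 times in SNP libraries.

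The 13 mRNAs, the only mitochondrial RNAs with counts, gave 4.71 ± 0.399% of all reads counted in the controls and 2.85 ± 0.193% after SNP (SD, n = 2 each). The exact two-sided permutation p was 0.333, the smallest this design allows. In bulk RNA, fewer mitochondria or mitochondrial genomes and less RNA from each cannot be told apart.

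The other genes of the pathway were taken from lists by role, and their counts stand beside the 26.2% of all genes that passed. That share was 16.4% under DESeq2, 28.6% with length and GC offsets and 19.7% with the guanine-over-cytosine offsets. Of 7 further transcription genes, 2 rose and 1 fell, and with the guanine-over-cytosine offsets 1 was higher and 1 lower. TFB1M, a relative of TFB2M that methylates the small mitochondrial ribosomal RNA, fell from 79.4 and 81.5 to 45.4 and 49.3 CPM, a log2 fold change of -0.76 (SE 0.120; adjusted p 8.7e-05). It passed under all 13 alternative settings in which it was tested. MTERF1, which binds the end of the ribosomal RNA genes, rose by 0.67 (SE 0.138; adjusted p 0.0012), and MTERF4, needed for mitochondrial ribosome assembly, rose by 0.48 (SE 0.128; adjusted p 0.0084), though not without control a (0.38, adjusted p 0.170). Whether TFB1M and TFB2M differed in their change was not tested.

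Of 22 further genes for RNA cleavage and turnover, 3 rose and 3 fell (27.3%). Under DESeq2 1 passed (higher), and with the guanine-over-cytosine offsets 1 passed (lower), each 4.55%. Of all genes, 16.4% and 19.7% passed in these 2 settings. TRNT1, which adds the CCA end to transfer RNAs, rose by 0.63 (SE 0.133; adjusted p 0.0014). ENDOG, a mitochondrial nuclease, fell by 1.16 (SE 0.318; adjusted p 0.0101) from 8.17 and 7.81 to 3.40 and 3.76 CPM, a call lost under DESeq2 (adjusted p 0.0609). FASTK, the relative of TBRG4 known to be needed for MT-ND6 mRNA, fell by 0.55 (SE 0.158; adjusted p 0.0130), and did not pass without control b (0.144), without SNP a (0.0643) or under DESeq2 (0.0582). Of 20 RNA modification genes, 1 passed under DESeq2 and 1 with the guanine-over-cytosine offsets, both higher. In edgeR's test without offsets 3 passed (15%), all higher: the pseudouridine synthase PUS1 (0.70, SE 0.163, adjusted p 0.0030), the transfer RNA thiolase TRMU (0.44, SE 0.128, adjusted p 0.0147; 0.229 without control b and 0.0524 under DESeq2) and the ribosomal RNA methyltransferase MRM2 (0.34, SE 0.123, adjusted p 0.0463, with no call when any single library was left out).

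Of 11 genes for replication and maintenance of mitochondrial DNA, 2 passed (18.2%), both higher. With length and GC offsets 6 passed (54.5%, against 28.6% of all genes), 4 higher and 2 lower. With the guanine-over-cytosine offsets 3 passed (27.3%, against 19.7% of all genes), 1 higher and 2 lower. TWNK, the replicative helicase, had 27 CPM in both control libraries and 59 and 60.7 CPM in SNP libraries, a log2 fold change of 1.15 (SE 0.137; adjusted p 4.2e-06). TOP1MT, the mitochondrial topoisomerase, rose from 12 and 11.7 to 22.8 and 21.3 CPM (0.89, SE 0.192, adjusted p 0.0017). TOP3A, a topoisomerase that separates replicated molecules, was next at -0.28 (SE 0.103) and did not pass (adjusted p 0.0513). It passed as lower under 6 of 14 alternatives, among them length and GC offsets (0.0457) and the guanine-over-cytosine offsets (0.0323). TWNK passed under all 13 alternatives in which it was tested, and TOP1MT under 13 of 14.

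Of 10 tested regulators of nuclear genes for mitochondria, 1 rose and 2 fell, and under DESeq2 or with either kind of offsets the 2 falls passed and no rise did. NRF1 had 37.8 and 45.4 CPM in control and 39.9 CPM in both SNP libraries, a log2 fold change of -0.057 (SE 0.142) with an adjusted p of 0.810. GABPA was higher by 0.40 (SE 0.136; adjusted p 0.0321), a call lost without control a (0.234), without control b (0.0786), without SNP a (0.287) and with DESeq2's Wald test (0.0999). MYC, a growth-related transcription factor, fell from 58.1 and 60.4 to 29.2 and 28.5 CPM (-1.04, SE 0.135, adjusted p 1.2e-05). SP1, which binds GC boxes, fell by 0.66 (SE 0.0993; adjusted p 6.0e-05). MAVS, the adaptor through which cytosolic double-stranded RNA, including that of mitochondria, is sensed, fell by 0.50 (SE 0.0994; adjusted p 8.1e-04). The RNA sensor DDX58, at 0.45 (SE 0.235), did not pass (adjusted p 0.170). MYC, SP1 and MAVS passed under all 14 alternatives. TFB1M, MTERF4, TRNT1, ENDOG, PUS1, TWNK, NRF1 and GABPA share exonic bases with another gene, between which reads can be split. MTERF4 shares 5071 of its 9938 exonic bases with SNED1, and ENDOG 460 of its 1172 with SPOUT1, each on the opposite strand. The part of SNED1 and SPOUT1 reads in these counts was not tested.

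In these libraries the log2 fold change moved with the base composition of the transcripts, so each gene was placed among genes of like composition. Genes were sorted on the guanine share minus the cytosine share and split into 10 bins of near-equal size. The median log2 fold change ran from -0.43 in bin 1, with the lowest difference, to 0.39 in bin 10. Of the 10 factors, 5 lie in bin 9, whose median was 0.24: TFAM, TFB2M, MTPAP, GRSF1 and PNPT1, with 3.33 to 4.06 percentage points more guanine than cytosine. Within that bin TFAM stood at percentile 81.5 of the log2 fold changes, PNPT1 at 63.5, GRSF1 at 52.0, MTPAP at 22.4 and TFB2M at 8.76. TBRG4, at -0.561 points, lies in bin 3, whose median was -0.17, and stood at percentile 31.5 within it. LRPPRC, in bin 8, stood at percentile 50.1.

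**Figure D3:**
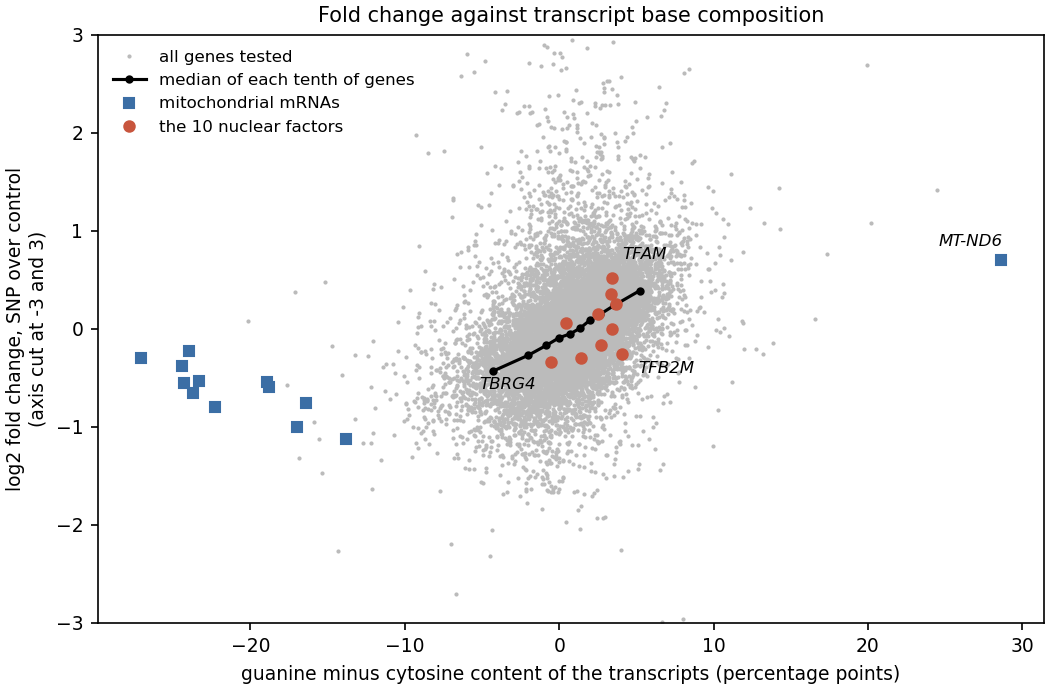
Log2 fold change of SNP over control against guanine minus cytosine content of the transcripts, in percentage points, for all genes tested (grey), with the median of each bin of genes (black), the 10 factors (red) and the 13 mitochondrial mRNAs (blue); the vertical axis is limited to -3 to 3. TFB2M lies below and TFAM above the medians, and the mitochondrial mRNAs lie at both ends of the horizontal axis, from -27.1 to 28.6.

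Offsets that remove, per library, the trend on length, on GC content and on the guanine-to-cytosine balance changed which factor passed. With them TFAM had a log2 fold change of 0.17 (adjusted p 0.223), PNPT1 of 0.028 (0.869) and TBRG4 of -0.13 (0.369), and none of these 3 passed. TFB2M had -0.49 with an adjusted p of 0.0264, and was the only 1 of the 10 to pass. GRSF1, LRPPRC and MTPAP changed sign, to -0.062, -0.069 and -0.22, and did not pass. With offsets on length and GC alone, TFAM passed (0.36, adjusted p 0.0129), and PNPT1 (0.20, 0.131) and TBRG4 (-0.26, 0.0657) did not. TFB1M (-0.81, adjusted p 2.0e-04), TWNK (0.85, 3.1e-04) and MYC (-0.60, 0.0032) passed with the guanine-over-cytosine offsets too, and FASTK (-0.25, 0.194), TRNT1 (0.26, 0.114), MTERF1 (0.22, 0.189), TRMU (0.11, 0.530), MRM2 (0.16, 0.275), GABPA (0.14, 0.399) and TOP1MT (0.49, 0.0577) did not.

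**Figure D4:**
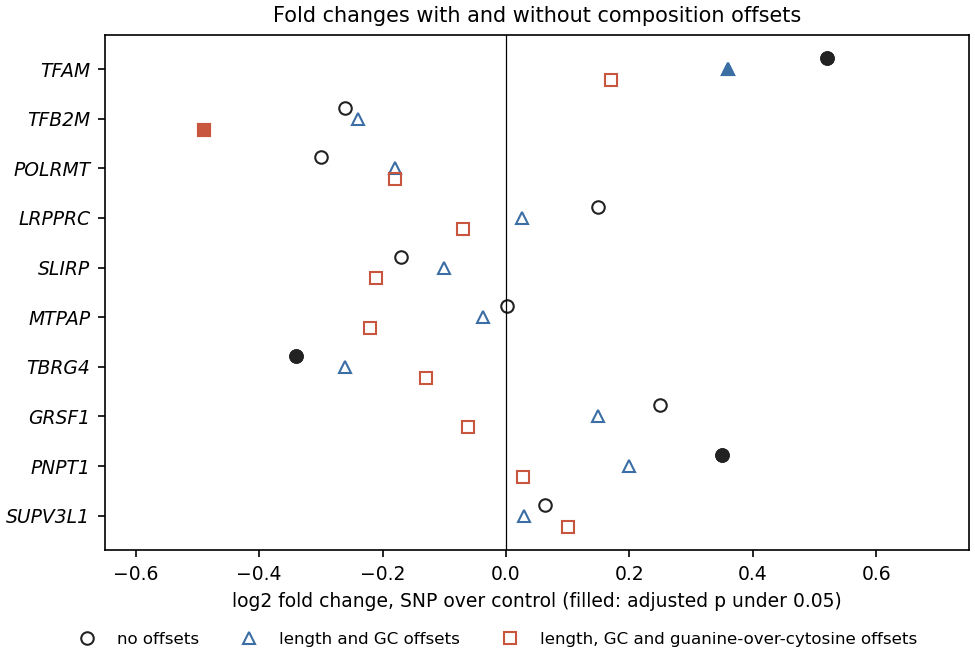
Log2 fold change of each of the 10 factors without offsets (circles), with length and GC offsets (triangles) and with length, GC and guanine-over-cytosine offsets (squares); filled symbols have an adjusted p under 0.05. TFAM is filled without offsets and with length and GC offsets, PNPT1 and TBRG4 only without offsets, and TFB2M only with the guanine-over-cytosine term.

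The mitochondrial mRNAs sit at the edges of this composition scale. The 12 heavy-strand mRNAs have between 13.8 and 27.1 points less guanine than cytosine, and 11 of the nuclear genes tested lie at or below MT-CO1, the highest of the 12. The lowest nuclear gene lies at -20.2, so 7 of the 12 are beyond every nuclear gene tested. MT-ND6, at 28.6 points, lies above the highest nuclear gene tested, at 24.5. With the guanine-over-cytosine offsets 5 heavy-strand mRNAs passed as higher and MT-CO1 as lower (-0.43, adjusted p 4.0e-05), and MT-ND6 turned to -1.15 (adjusted p 1.4e-06). Few nuclear genes lie at those edges, so the change of these mRNAs and their composition cannot be told apart. All 12 heavy-strand mRNAs lie in bin 1, whose median was -0.43, and stood between percentile 5.02 (MT-CO1) and 70 (MT-ND2) within it. MT-ND6, in bin 10, stood at percentile 77.3. Without offsets, 555 of the 1473 genes in bin 1 passed as lower, and 612 of the 1473 in bin 10 passed as higher. Among the 12, MT-CO1 has the least excess of cytosine and the largest fall without offsets. MT-ATP8, with the greatest excess, had -0.30, at percentile 63.1 of bin 1. The part of composition in these differences was not tested.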

How the data were processed

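The 4 tables, 1 per library, were analysed: 2 of untreated and 2 of SNP-treated SH-SY5Y cells, grouped by their titles; the labels give 75 bp reads and 40 M reads per sample. Reads were processed on GRCh38, per the submitters' processing notes; the aligner, the counter and the use of strand are not given in the sources used here. Tests used the deposited read counts, whole numbers for each gene. Deposited TPM values are scaled per gene length to 1000000 per library and was used for levels between genes. Deposited RPKM values were not used for any result.

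Counts were tested with edgeR 4.0.16 in R 4.3.3: filterByExpr (minimum count 10, total 15), TMM (factors 0.989 to 1.01), quasi-likelihood test on all 4 libraries without covariate, Benjamini-Hochberg adjustment over all genes, threshold 0.05. Standard errors and 95% intervals were derived from the fold change and its F statistic. The alternatives included DESeq2 1.42.0 (Wald test). The test and the offsets (per-library lowess, span 0.5, 3 iterations) were run on simulated data. The trend simulated for the offsets lay on the same guanine-minus-cytosine measure that they remove. That simulation therefore cannot show whether the offsets suit the trend in these libraries. Positions, lengths and base composition over all transcripts of a gene come from GENCODE 29 (57980 of 58243 identifiers found; 99.8% of genes tested had length and GC). Library totals of 5613144 to 8056550 counts set the precision. Replicates differed by more than sampling noise (chi-square per degree of freedom 3.002 in control and 5.03 in SNP), so each library counted once.

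The 10 genes and the lists beside them were chosen with earlier results of these data known. All 10 are named, with up to 3 genes of each other list that had the smallest adjusted p, NRF1, GABPA and MT-ND6; the other mitochondrial mRNAs named were chosen after their values were seen.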

Additional observations from a re-analysis of the deposited data

How the results depend on the processing

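With 3 of the 10 factors called, small shifts in p move the count. It was 1 without a low-count filter, with DESeq2's Wald test, with length and GC offsets, with these and the replicate block, with the guanine-over-cytosine offsets, and at an adjusted p under 0.01. Leaving out each library in turn it ranged from 0 (without control b, where 2 had an unadjusted p under 0.05 in edgeR's test; DESeq2 was not run there) to 5 (without SNP b); then 1 group has 1 library, which is assumed to vary like the other group. The replicate block by letter gave 4 factors, adding GRSF1 (adjusted p 0.0499), and 4487 genes in all. The same-lettered libraries had a correlation of deviations of 0.0502 and share only a letter. The 3861 genes called became 2415 with DESeq2, 2224 at an adjusted p under 0.01, 2018 among genes without exonic overlap (an alternative chosen after seeing the data), and 2447 to 4144 without single libraries. Of the 13 mitochondrial mRNAs 11 were called, and 7 with the guanine-over-cytosine offsets. The fall of the mitochondrial share kept its direction over protein-coding counts, over TPM and without each library. The groups did not overlap in this share, so leaving out a single library could not turn it. The guanine-over-cytosine offsets were not applied to the share.

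Signs changed for LRPPRC (-0.069), GRSF1 (-0.062) and MT-ND6 (-1.15) with the guanine-over-cytosine offsets. MTPAP, at 0.0012, took values of -0.0026 without a filter, -0.037 with length and GC offsets, -0.036 with these and the block, -0.22 with the guanine-over-cytosine offsets, and from -0.084 to 0.090 without single libraries. NRF1 was 0.079 without control b and -0.19 at its lowest. The cause of these changes was not tested.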
